A study of Homo sapiens with 12 samples.

Results

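The nuclear genes of the respiratory chain encode most of the subunits of the mitochondrial complexes that oxidize NADH and succinate, reduce oxygen and make ATP. Members were chosen by gene symbol: the NDUFA, NDUFB, NDUFC, NDUFS and NDUFV genes of complex I, the SDH genes of complex II, the UQCR genes and CYC1 of complex III, COX genes of complex IV and the ATP5 genes of complex V, the ATP synthase. The name rule matched 142 of the 58884 genes in the table, and 56 of these were pseudogenes and were left out, which left 86 members. Of these, 78 reached a normalized count of 10 in 4 or more libraries and were tested, 36 of 37 in complex I, 4 of 4 in complex II, 10 of 10 in complex III, 10 of 15 in complex IV and 18 of 20 in complex V. NDUFA4 carries a complex I name but is a subunit of cytochrome c oxidase and was counted in complex IV. COX4I1, the main form of another cytochrome c oxidase subunit, does not match the name rule and was kept outside the members.

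The RNA came from KYSE70, a human cell line of esophageal squamous cell carcinoma, after 72 h with 10 µM pyrimethamine (4 libraries), after 72 h with 20 nM mitoxantrone (4 libraries), or without treatment (control, 4 libraries). Pyrimethamine is an inhibitor of dihydrofolate reductase used against parasites, and mitoxantrone is a DNA intercalator that traps topoisomerase II on DNA. The study compared the drugs, named in its title as NRF2 inhibitors, with untreated cells of this 1 line, and the labels name no solvent for the control cells. They also leave out whether replicate libraries were separate cultures, so the p-values measure only the spread between these samples, which may be technical.

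Libraries held 59.5 to 72.5 M reads assigned to genes with pyrimethamine, 54.4 to 74.3 M with mitoxantrone and 47.5 to 94.5 M in the control. All 8 squamous markers, among them the keratin genes KRT5 and KRT14 and the transcription factor gene TP63, averaged 10 normalized counts or more in every group. Of 5 leukocyte markers, 1 reached that mean with pyrimethamine and 0 with mitoxantrone or in the control, and of 3 endothelial markers 1 did so in every group (VWF), with PECAM1 and CDH5 near 0. The sum of the endothelial markers was 1048.5 to 1153 normalized counts with pyrimethamine, 175 to 247 with mitoxantrone and 948 to 1059 in the control, and VWF fell with mitoxantrone (log2 change -2.21, SE 0.09). The squamous markers summed to 397267 to 421127 with pyrimethamine, 323669 to 346038 with mitoxantrone and 325097 to 348438 in the control, with 2 of 8 called higher and 3 lower with each drug. Of 6 fibroblast markers 3 reached a mean of 10 with pyrimethamine, 2 with mitoxantrone and 3 in the control. The fibroblast markers summed to 11847 to 13229.8 normalized counts with pyrimethamine, 5873 to 7647 with mitoxantrone and 16889 to 17596 in the control, nearly all of it from COL1A1 and COL3A1, while COL1A2, DCN and LUM were near 0. The part of these markers in the members' values was not tested. Mitoxantrone replicate 1 stood apart in its mitochondrial transcripts, as given below. The counts of all members called were also made without it, but not the counts of smaller groups of genes.

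Complex I takes electrons from NADH and complex II from succinate, both pass them through ubiquinone to complex III, and cytochrome c carries them on to complex IV, which reduces oxygen. Complexes I, III and IV pump protons across the inner membrane, and complex V lets them flow back to make ATP. Core subunits of these complexes hold the redox centers or the catalytic sites, while accessory subunits are needed for assembly and stability. The mitochondrial genome encodes 13 of the subunits, and the others come from nuclear genes. Promoters of some of these nuclear genes are known to be bound by the factors NRF1 (nuclear respiratory factor 1, not the NRF2 of the title), GABP of the ETS family and YY1.

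Promoters of 5 members are printed to show how these recognition letters are placed in genes whose transcripts moved differently under the drugs. They do not show how common the letters are, which is counted over all matched members below. ATP5MC2 was lower with pyrimethamine and higher with mitoxantrone, NDUFS6 was higher with mitoxantrone and not called with pyrimethamine, ATP5PF was called higher with both drugs, with a pyrimethamine call that depended on the scale, COX6A1 was higher with pyrimethamine and not called with mitoxantrone, and ATP5MC1, which encodes the same mature protein as ATP5MC2, was higher with both. The sequences are the 250 bases before the start of each gene, read 5′ to 3′ on the gene's strand, from RefSeq on GRCh38.p14. Capitals mark CGCATGCG (NRF1, the same on both strands), CCGGAAG (ETS family) and AAGATGGCG (YY1), each searched on both strands. The stretches lie at chr12:53676084-53676333 on the minus strand for ATP5MC2, chr5:1801157-1801406 on the plus strand for NDUFS6, chr21:25735055-25735304 on the minus strand for ATP5PF, chr12:120437863-120438112 on the plus strand for COX6A1 and chr17:48892537-48892786 on the plus strand for ATP5MC1.
ATP5MC2: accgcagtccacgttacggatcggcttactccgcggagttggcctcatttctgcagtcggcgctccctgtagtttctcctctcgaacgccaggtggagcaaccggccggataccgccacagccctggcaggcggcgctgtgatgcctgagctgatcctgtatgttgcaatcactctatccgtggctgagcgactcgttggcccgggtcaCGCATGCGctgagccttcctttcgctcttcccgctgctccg
NDUFS6: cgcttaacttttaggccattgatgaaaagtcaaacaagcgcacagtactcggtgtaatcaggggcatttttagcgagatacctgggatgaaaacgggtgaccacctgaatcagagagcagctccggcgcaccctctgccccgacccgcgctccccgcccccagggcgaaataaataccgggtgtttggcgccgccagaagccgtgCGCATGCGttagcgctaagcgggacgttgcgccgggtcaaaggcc
ATP5PF: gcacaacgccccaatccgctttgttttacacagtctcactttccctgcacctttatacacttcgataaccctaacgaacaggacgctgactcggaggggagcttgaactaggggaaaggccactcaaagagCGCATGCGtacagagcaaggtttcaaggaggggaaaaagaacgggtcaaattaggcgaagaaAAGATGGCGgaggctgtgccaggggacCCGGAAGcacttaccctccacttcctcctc
COX6A1: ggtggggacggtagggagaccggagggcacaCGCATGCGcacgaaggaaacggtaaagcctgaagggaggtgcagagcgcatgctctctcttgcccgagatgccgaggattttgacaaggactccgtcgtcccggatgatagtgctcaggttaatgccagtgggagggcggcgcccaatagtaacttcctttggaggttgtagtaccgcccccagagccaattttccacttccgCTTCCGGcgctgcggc
ATP5MC1: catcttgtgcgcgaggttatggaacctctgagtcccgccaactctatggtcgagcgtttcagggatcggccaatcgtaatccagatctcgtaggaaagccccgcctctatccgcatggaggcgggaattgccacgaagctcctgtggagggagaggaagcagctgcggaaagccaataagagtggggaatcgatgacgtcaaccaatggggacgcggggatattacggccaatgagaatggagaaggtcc
The NRF1 letters lie 41 to 34 bases before the start in ATP5MC2, 45 to 38 in NDUFS6, 119 to 112 in ATP5PF and 219 to 212 in COX6A1. The ATP5PF promoter also holds the YY1 letters 57 to 49 bases and the ETS letters 30 to 24 bases before the start, and the COX6A1 promoter holds the ETS letters on the opposite strand 16 to 10 bases before the start. None of these letters is in the ATP5MC1 window.

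Promoters of 300 bases, 250 before to 50 after the start, were matched for 69 of the 86 members. The NRF1 letters were in 10 of them (14.5%), against 3.20% of the 16842 promoters matched to tested genes. The ETS letters were in 19 (27.5%, against 15.5%) and the YY1 letters in 8 (11.6%, against 3.14%). The median GC content of the windows was 61.3% in members and 64.3% in tested genes. The letters are descriptions of these windows and not binding sites.

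Per kilobase of transcript, the most abundant members in control cells were NDUFB5, an accessory subunit of the membrane arm of complex I, with 44536 normalized counts per kilobase, ATP5F1B, the catalytic beta subunit of ATP synthase, with 39382, UQCRH, the hinge protein of complex III, with 38968, and NDUFS5 of complex I with 35008. The length was that of 1 chosen transcript per gene, and the order depends on that choice. Per kilobase of all annotated exons, NDUFB5 had 8655, ATP5F1B 31190, UQCRH 16717 and NDUFS5 35008. Core subunits of complex I were spread widely, with 6368 per kilobase of transcript for NDUFS8, 6251 for NDUFS3, 6192 for NDUFV1, 2099 for NDUFS7, 725 for NDUFS1 and 6.1 for NDUFV2, although a working complex holds 1 copy of each. Per kilobase of all annotated exons their values were 1114, 1632, 1954, 290, 698 and 2.1, in the same order. The NDUFS1 transcript used has 11819 bases for a coding sequence of 2181. NDUFV2, which sits next to the NADH-oxidizing site, did not pass the filter, with 2.67, 4.93, 1.02 and 6.57 normalized counts in pyrimethamine libraries, 12.4, 17.2, 8.66 and 7.17 in mitoxantrone libraries and 9.35, 4.62, 7.27 and 1.32 in control libraries. It reached a value of 10 in 2 libraries and lay just outside the filter, while NDUFA7, just inside, reached it in 4, with 9.79, 13.8, 12.3 and 6.57 with pyrimethamine, 8.26, 7.63, 3.71 and 4.48 with mitoxantrone and 5.61, 11.9, 11.4 and 6.59 in the control.

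Many of the low values lay in genes that overlap other annotated genes. In GENCODE release 29, 84.7% of the coding sequence of NDUFV2 is also annotated to another gene, AP005263.1, and 78.3% of that of NDUFA7 to AC010323.1 and RPS28. Among members past the filter, the 10 with at least 50% of their coding sequence shared in this way had a median of 527 normalized counts per kilobase in the control, and 6 of them were under 1000. The other 68 had a median of 6235 per kilobase, and 6 of them were under 1000. Over all 86 members, 9 of 13 were under 1000 with at least 50% shared and 11 of 73 with less. How reads in shared sequence were counted is not given in the sources used here, and the part of the overlap in the low values was not tested. The levels of NDUFA7, NDUFA9, NDUFA13, NDUFB8, NDUFC2, NDUFV2, UQCR11, COX6A1, COX6B2, COX8A, ATP5MG, ATP5PO and ATP5MF-PTCD1, and their changes, are therefore uncertain, and so are those of UQCRHL, an intronless copy of UQCRH whose reads may be shared with it. Members below the 50% cutoff also share coding sequence, with 48.5% in NDUFS7, 47.7% in SDHD, 45.2% in NDUFB2, 44.6% in ATP5MF, 44.0% in ATP5ME and 37.8% in NDUFA11. All these percents count genes on either strand. Genes on the same strand overlap 0% of the exon sequence in NDUFS7 and ATP5ME and 1.44% in NDUFB2. In SDHD, ATP5MF and NDUFA11 they overlap 11.2%, 8.57% and 9.65% of it. Whether reads were counted by strand is not given in the sources used here.

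**Figure D1:**
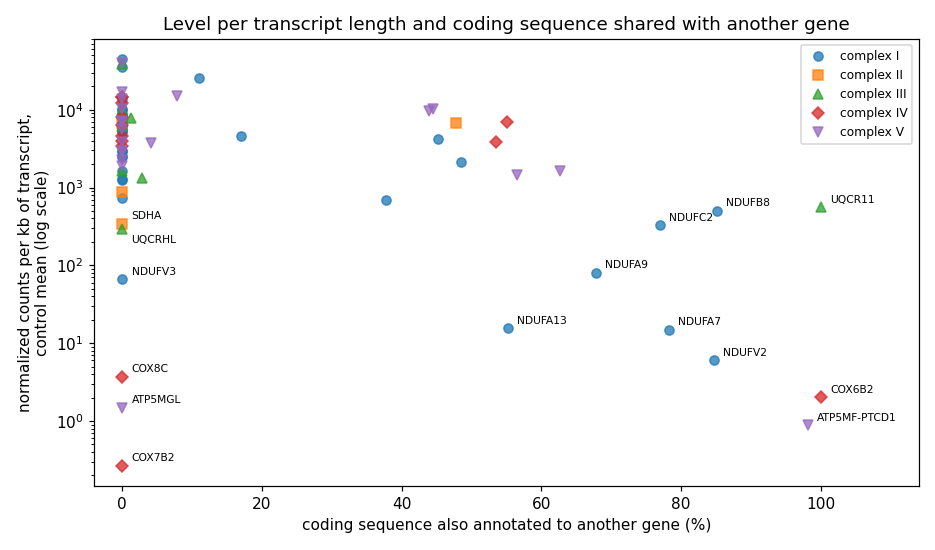
Level of the members in control cells (normalized counts per kilobase of transcript, mean of 4 libraries, log scale) against the percent of its coding sequence that is also annotated to another gene, with the complex as symbol and color. Members under 600 per kilobase are named, and COX6A2 and COX7A1, at 0 in every library, cannot be drawn on a log axis. The 13 members at 50% or more include 9 under 1000 per kilobase.

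Isoforms known from other tissues were at or near the floor. COX6A2 and COX7A1, the muscle forms, had 0 reads in all 12 libraries, and a count of 0 allows up to 3 reads per library. The testis form COX6B2, COX7B2 and COX8C had at most 6.14, 0.661 and 4.15 normalized counts in any library. The forms in use were COX6A1, COX6B1, COX7A2, COX7B and COX8A, at 3406 to 12278 normalized counts per kilobase in control cells.

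With pyrimethamine, 50 of the 78 tested members were higher than in the control (64.1%), 7 were lower (8.97%) and 21 did not pass the test, by limma with an adjusted p under 0.05. Of all 16950 genes tested, 26.4% were higher and 26.9% lower. The members' median log2 change was 0.16, beside 0.0018 over all genes tested, so the typical change was small. On the same-total scale described for mitoxantrone next, 37 were higher and 10 lower with a median of 0.10, and without mitochondrial transcripts in that total 40 and 8 with a median of 0.12. The largest rises were those of NDUFA2 (0.58), NDUFB3 (0.54), NDUFB9 (0.54), NDUFA4 (0.52), NDUFA11 (0.51) and ATP5MC1 (0.45), and those that fell included ATP5MC2 (-0.49), NDUFS1 (-0.35), CYC1 (-0.33), NDUFS4 (-0.26), NDUFA6 (-0.21) and NDUFS3 (-0.16). In 50 of 78 members the libraries of the groups did not overlap, beside 51.1% of all genes tested. In bulk RNA a transcript lost per cell and a loss of the cells that carry it cannot be told apart.

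With mitoxantrone, 39 of 78 members were higher than in the control (50%), 8 were lower (10.3%) and 31 did not pass, while 33.5% of all genes tested were higher and 35.8% lower. The median log2 change of the members was 0.12, beside -0.008 over all genes. ATP5MC2 (0.83), NDUFS7 (0.75), NDUFS4 (0.75), NDUFA5 (0.69), ATP5F1D (0.59) and ATP5MC3 (0.59) rose most. NDUFC2 (-0.34), NDUFA8 (-0.27), ATP5IF1 (-0.19), ATP5MG (-0.19), SDHC (-0.16), NDUFB2 (-0.14), NDUFS3 (-0.13) and NDUFB11 (-0.12) were the 8 that fell. Libraries did not overlap in 37 of 78 members, beside 60.9% of all genes. This balance depends on the scale: with libraries rescaled to the same total, which puts the median of all genes at -0.108, there were 29 higher and 18 lower members, and without mitochondrial transcripts in that total, which puts it at -0.149, there were 26 and 24. The members' median was 0.12 above that of all genes tested on the authors' scale, and 0.078 above it among genes that averaged 100 normalized counts or more. With quantile normalization 35 were higher and 14 lower, and the members' median was 0.069 above that of all genes tested.

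Between the drugs, 28 members were higher with mitoxantrone than with pyrimethamine (35.9%), 29 were lower (37.2%) and 21 did not pass, beside 36.9% and 39.5% of all genes tested. The members' median was -0.027 and that of all genes -0.024. The calls therefore split evenly on the authors' scale, close to the shares of all genes tested, and 54 of 78 members had libraries that did not overlap, beside 68.8% of all genes. Among genes that averaged 100 normalized counts or more, the members' median differed from that of all such genes by -0.058. With quantile normalization it differed from that of all genes tested by -0.068. On the same-total scale the split was 23 higher and 34 lower, without mitochondrial transcripts in the total 16 and 36, with upper-quartile rescaling 23 and 35, and with quantile normalization 22 and 32. The comparisons with the control share the same 4 control libraries, so their values are set side by side and not tested against each other.

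**Figure D2:**
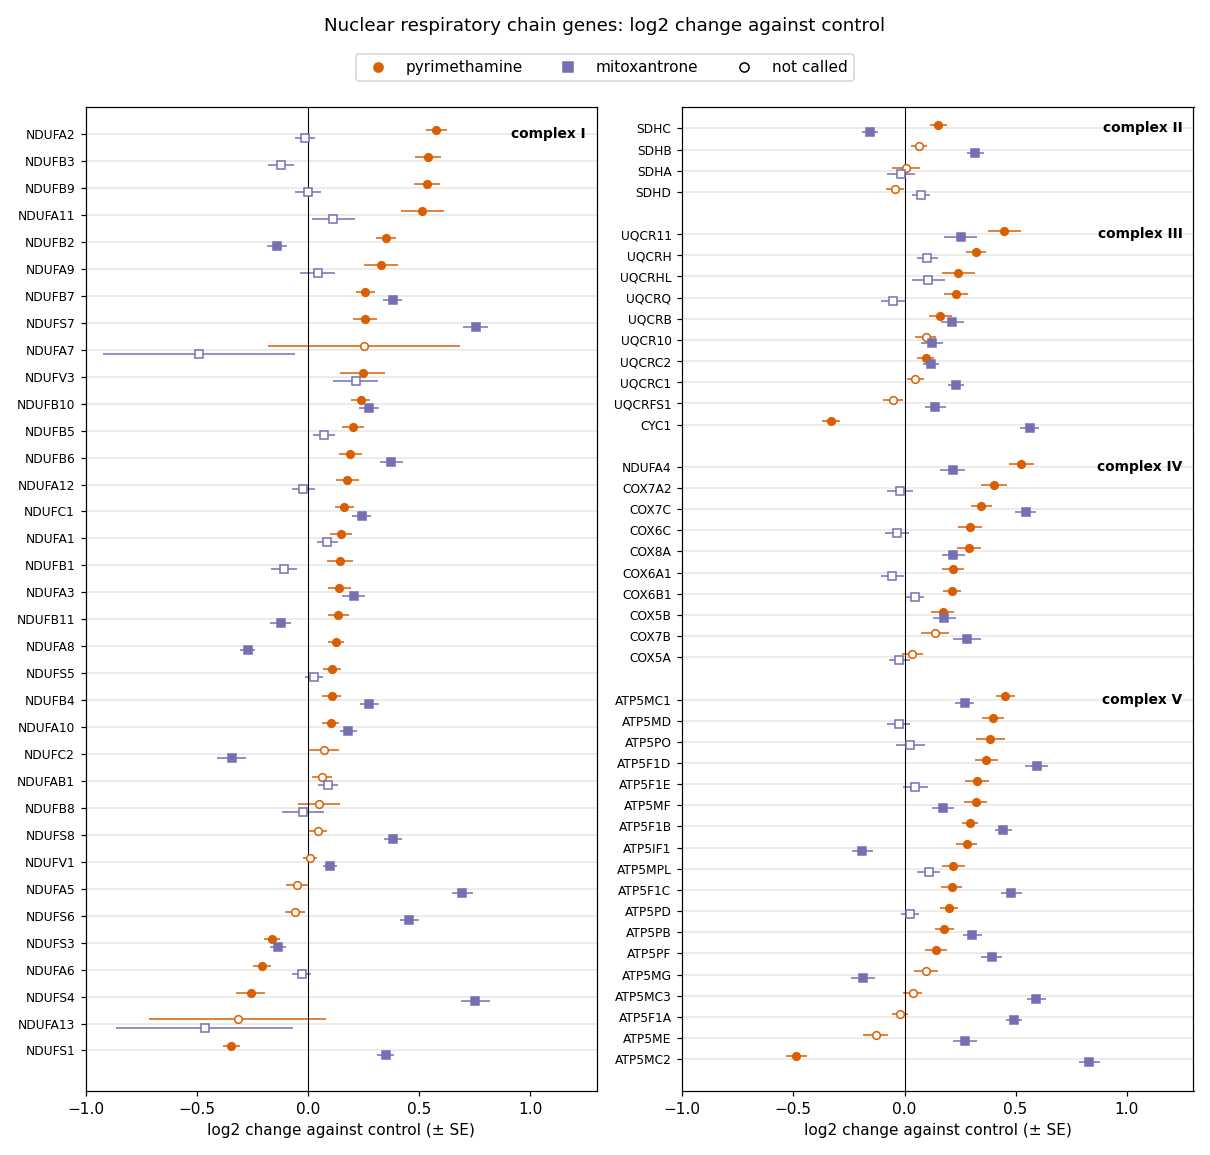
Log2 change against the control (± SE) of 77 of the 78 tested members with pyrimethamine (circles) and mitoxantrone (squares), grouped by complex, with open symbols for members that did not pass the test. Most circles lie right of 0 (50 of those drawn called higher, 6 lower), and the squares of complex I lie on both sides (14 drawn called higher, 5 lower).

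In complex I, core and accessory subunits were counted apart. Beside these counts, 26.4% of all genes tested were higher and 26.9% lower with pyrimethamine, and 33.5% and 35.8% with mitoxantrone. Mitoxantrone over pyrimethamine, 36.9% of all genes tested were higher and 39.5% lower. Of the 6 core subunits tested, 3 were lower, 1 was higher and 2 did not pass with pyrimethamine (median log2 change -0.077), while 5 were higher and 1 lower with mitoxantrone (median 0.34), and 5 of 6 were higher with mitoxantrone than with pyrimethamine (median 0.42). Of the 30 accessory subunits tested, 21 were higher and 2 lower with pyrimethamine (median 0.15), and 10 higher and 4 lower with mitoxantrone (median 0.057), while 7 of them were higher and 12 lower with mitoxantrone than with pyrimethamine (median -0.078). Over all 36 tested subunits the median was 0.14 with pyrimethamine and 0.088 with mitoxantrone, and the second became -0.013 on the same-total scale and -0.054 without mitochondrial transcripts in the total. Mitoxantrone over pyrimethamine, 12 of the 36 were higher and 12 lower (33.3% each), near the shares of all genes tested. The difference between core and accessory subunits was not itself tested.

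NDUFS1, the largest core subunit, which carries iron-sulfur clusters, lies at chr2:206114817-206159603. It had 6459.8, 7081, 6521 and 6909 normalized counts in pyrimethamine libraries, 10696, 10842, 11336 and 10765 in mitoxantrone libraries and 8947, 8409.6, 8303 and 8599.7 in control libraries. The 3 groups did not overlap, with pyrimethamine lowest and mitoxantrone highest. The log2 change was -0.35 (SE 0.038) with pyrimethamine (adjusted p = 1.50e-07), 0.35 (SE 0.038) with mitoxantrone (adjusted p = 5.41e-08) and 0.69 (SE 0.038) for mitoxantrone over pyrimethamine (adjusted p = 3.72e-13).

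NDUFS4, an accessory subunit beside the NADH-oxidizing module and a known disease gene of complex I deficiency, lies at chr5:53560633-53683340. Its values were 1238, 1393, 1394 and 1505 with pyrimethamine, 2409.7, 2829, 2893 and 3024 with mitoxantrone and 1597, 1614, 1656 and 1734 in the control. Every mitoxantrone library was above every other library, and the lowest of them was replicate 1. The log2 change was -0.26 (SE 0.065) with pyrimethamine (adjusted p = 0.00204), 0.75 (SE 0.065) with mitoxantrone (adjusted p = 1.31e-09) and 1.01 (SE 0.065) between the drugs.

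NDUFS7, the core subunit next to the ubiquinone site, was higher with both drugs, averaging 2596 ± 47 normalized counts with pyrimethamine, 3672 ± 212 with mitoxantrone and 2181 ± 185 in the control (SD, n = 4 each). The log2 changes were 0.26 (SE 0.055) and 0.75 (SE 0.055), in that order of drugs, with adjusted p = 0.000466 and 8.00e-11. Of the NDUFS7 coding sequence, 48.5% is also annotated to other genes. NDUFS8, an iron-sulfur core subunit, rose with mitoxantrone by 0.38 (SE 0.04), with an adjusted p of 2.70e-08, while pyrimethamine gave 0.043 (SE 0.04), which did not pass (adjusted p = 0.381). NDUFS3, a core subunit of the peripheral arm, was lower with both, at 5349 ± 136 with pyrimethamine and 5457 ± 169 with mitoxantrone against 5989 ± 136 in the control, and the drugs did not differ beyond their spread (0.029 (SE 0.036), adjusted p = 0.48). NDUFV1, which binds FMN and oxidizes NADH, changed least, by 0.097 (SE 0.032) with mitoxantrone (adjusted p = 0.0107), a call lost under each rescaling and under quantile normalization, and by 0.0093 (SE 0.032) with pyrimethamine (adjusted p = 0.831).

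Among the accessory subunits, NDUFA2 (chr5:140638740-140647785) had 5395, 5242, 5540.2 and 5794 normalized counts with pyrimethamine, 3722, 3551, 3772 and 3539 with mitoxantrone and 3463, 3524, 3745 and 4007 in the control. The pyrimethamine libraries were all above the others, and the mitoxantrone and control libraries overlapped, with log2 changes of 0.58 (SE 0.046) (adjusted p = 1.39e-09) and -0.013 (SE 0.046) (adjusted p = 0.809). NDUFB3, a subunit of the membrane arm, showed the same order, with 3152, 3166, 3207 and 3364 with pyrimethamine, 1962, 2037, 1917 and 2256 with mitoxantrone and 2019.6, 2133, 2266 and 2479.7 in the control. Its log2 change was 0.54 (SE 0.058) with pyrimethamine and -0.66 (SE 0.058) for mitoxantrone over pyrimethamine (adjusted p = 1.17e-09). NDUFB9, also of the membrane arm, averaged 26449 ± 1603 with pyrimethamine, 18279 ± 1765 with mitoxantrone and 18241 ± 1103 in the control, a rise of 0.54 (SE 0.059) with pyrimethamine. NDUFA11, at a lower level of 536 ± 48.6, 406 ± 27.2 and 377 ± 52 normalized counts in the same order of groups, rose with pyrimethamine by 0.51 (SE 0.096) (adjusted p = 0.000118).

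NDUFA5, an accessory subunit of the peripheral arm, had 2419, 2286, 2414 and 2412 normalized counts with pyrimethamine, 3857, 4072, 3927 and 4107 with mitoxantrone and 2310.5, 2330.2, 2563 and 2677 in the control. It stood apart only in the mitoxantrone libraries among these groups, with a log2 change of 0.69 (SE 0.048) (adjusted p = 3.52e-11) and, for pyrimethamine, -0.049 (SE 0.048) (adjusted p = 0.403). NDUFS6, whose promoter holds the NRF1 letters printed above, averaged 7649.7 ± 94.3 with pyrimethamine, 10929.6 ± 192 with mitoxantrone and 7988 ± 641 in the control, with a rise of 0.46 (SE 0.044) with mitoxantrone. NDUFA6 was lower with pyrimethamine (-0.21 (SE 0.042), adjusted p = 0.000307) and not called with mitoxantrone (-0.028 (SE 0.042), adjusted p = 0.564).

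NDUFA8 (chr9:122144058-122159819), NDUFB2 (chr7:140690777-140722790) and NDUFB11 (chrX:47142216-47145504), accessory subunits of the membrane arm, went the other way, higher with pyrimethamine and lower with mitoxantrone. NDUFA8 had 12518, 12199, 12552 and 12728 with pyrimethamine, 9589, 9435, 9613 and 9315 with mitoxantrone and 10991, 11067, 11768 and 12041 in the control, with no overlap between the groups. Its log2 changes were 0.13 (SE 0.036) with pyrimethamine, a call lost on the same-total scale (adjusted p = 0.108), and -0.27 (SE 0.036) with mitoxantrone. NDUFB2 had 5996, 5503, 5885 and 6079.9 with pyrimethamine, 4095, 4076, 4211 and 4325 with mitoxantrone and 4322, 4431, 4793 and 4883 in the control, with mitoxantrone and control libraries that met at their edges. The fall of NDUFB2 with mitoxantrone was -0.14 (SE 0.044) (adjusted p = 0.00806), and mitoxantrone over pyrimethamine it was -0.49 (SE 0.044) (adjusted p = 1.63e-09). For NDUFB11 the changes were 0.14 (SE 0.047) with pyrimethamine and -0.12 (SE 0.047) with mitoxantrone (adjusted p = 0.0199 and 0.0257), and both calls rest on single libraries, since the pyrimethamine call was lost without control replicate 2 or 3 or pyrimethamine replicate 1 (adjusted p = 0.0586, 0.0689 and 0.056) and the mitoxantrone call without control replicate 4 or mitoxantrone replicate 1 (adjusted p = 0.114 and 0.0987). NDUFC2 fell with mitoxantrone, to 650.2 ± 31.7 against 827 ± 63.6 in the control (log2 change -0.34 (SE 0.067), adjusted p = 0.00011), in a gene that shares 76.9% of its coding sequence with other annotated genes.

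Complex II, which also works in the tricarboxylic acid cycle, changed little. SDHB, its iron-sulfur subunit, averaged 8074 ± 126 normalized counts with pyrimethamine, 9630.0 ± 514 with mitoxantrone and 7715 ± 52 in the control, and rose with mitoxantrone by 0.32 (SE 0.037) (adjusted p = 1.46e-07). SDHC, a membrane anchor (chr1:161314257-161375340), had 13030.0, 12890.4, 12923 and 14018 with pyrimethamine, 10212, 10775, 11004 and 10707 with mitoxantrone and 11553, 11641, 12198 and 12170.3 in the control. The 3 groups of SDHC did not overlap, and its log2 changes were 0.15 (SE 0.037) with pyrimethamine (adjusted p = 0.00163) and -0.16 (SE 0.037) with mitoxantrone (adjusted p = 0.000875). SDHA, the flavoprotein that oxidizes succinate, gave 0.0064 (SE 0.062) and -0.016 (SE 0.062) with pyrimethamine and mitoxantrone, and the second anchor SDHD gave -0.044 (SE 0.04) and 0.074 (SE 0.04); none of these passed the test (adjusted p = 0.941, 0.826, 0.373 and 0.103). SDHA stood at 343 normalized counts per kilobase of transcript in the control and SDHC at 877. SDHB had 6691 and SDHD 6712, although the proteins work together in the same complex. Per kilobase of all annotated exons the values were 97.8, 840, 3133 and 3403, in the same order. The SDHC transcript used has 13566 bases for a coding sequence of 507.

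In complex III, 6 of 10 members were higher and 1 lower with pyrimethamine (median log2 change 0.13), and 7 were higher and none lower with mitoxantrone (median 0.13, which became -0.011 with a total without mitochondrial transcripts). Beside these counts, 26.4% of all genes tested were higher and 26.9% lower with pyrimethamine, and 33.5% and 35.8% with mitoxantrone. CYC1 encodes cytochrome c1, which hands electrons to cytochrome c. Its values were 7348, 6560.0, 6736 and 7213 with pyrimethamine, 12684, 13042, 12706 and 13276 with mitoxantrone and 8411, 8680.5, 8653 and 9282 in the control. The groups of CYC1 did not overlap, and the log2 change was -0.33 (SE 0.041) with pyrimethamine (adjusted p = 6.59e-07), 0.56 (SE 0.041) with mitoxantrone (adjusted p = 8.34e-11) and 0.89 (SE 0.041) between the drugs.

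The Rieske iron-sulfur protein gene UQCRFS1 and the core protein genes UQCRC1 and UQCRC2 moved less. UQCRC1 rose with mitoxantrone, to 23376 ± 586 against 19916 ± 582 in the control (0.23 (SE 0.037), adjusted p = 1.26e-05), and gave 0.049 (SE 0.037) with pyrimethamine (adjusted p = 0.29). UQCRC2 was called higher with both drugs (0.095 and 0.12), but the first call was lost in 11 alternatives, 6 of them with 1 library left out (adjusted p 0.0545 to 0.115), and the second under every rescaling. UQCRFS1 was called higher with mitoxantrone alone (0.14 (SE 0.047)), a call lost under every rescaling, and gave -0.052 (SE 0.047) with pyrimethamine (adjusted p = 0.364). Of the accessory subunits, UQCRQ rose with pyrimethamine (0.23 (SE 0.053)) and gave -0.052 (SE 0.053) with mitoxantrone, which did not pass (adjusted p = 0.392). UQCR11, whose whole coding sequence is also annotated to another gene, rose with both (0.45 and 0.25), and its mitoxantrone call was lost on both same-total scales (adjusted p = 0.0735 and 0.189).

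In complex IV, where the catalytic core is made by the mitochondrial genome and the nuclear members are accessory subunits, 8 of 10 members were higher with pyrimethamine and none lower (median log2 change 0.25). With mitoxantrone 5 of 10 were higher and none lower (median 0.11, which became -0.029 with a total without mitochondrial transcripts). Mitoxantrone over pyrimethamine, 2 were higher and 5 lower (median -0.12). The shares of all genes tested were 26.4% higher and 26.9% lower with pyrimethamine, and 33.5% and 35.8% with mitoxantrone. Between the drugs they were 36.9% and 39.5%. NDUFA4 had 18848, 18578, 19189 and 22227 normalized counts with pyrimethamine, 14658, 15513, 16851 and 16605 with mitoxantrone and 12893, 13048, 14661 and 14127 in the control. Pyrimethamine libraries were all higher than the others, and mitoxantrone and control libraries met at the edge, with log2 changes of 0.52 (SE 0.056) (adjusted p = 7.92e-08) and 0.22 (SE 0.056) (adjusted p = 0.00161, a call lost on both same-total scales and under quantile normalization). COX7C rose with both drugs, at 8039 ± 177 with pyrimethamine and 9226 ± 307 with mitoxantrone against 6339 ± 497 in the control, changes of 0.35 (SE 0.046) and 0.54 (SE 0.046).

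COX7A2, the form of its subunit found outside muscle, rose with pyrimethamine by 0.40 (SE 0.058) (adjusted p = 5.43e-06) and gave -0.019 (SE 0.058) with mitoxantrone (adjusted p = 0.785). COX6A1 and COX6B1 did likewise, with 0.22 and 0.21 with pyrimethamine, and -0.054 and 0.047 with mitoxantrone, which did not pass (adjusted p = 0.34 and 0.322). On both same-total scales COX6A1 was called lower with mitoxantrone (adjusted p = 0.0075 and 0.00142). COX8A was higher with both (0.29 and 0.22), and COX7B with mitoxantrone (0.28), and both mitoxantrone calls were lost with a total without mitochondrial transcripts. COX5B was higher with both by 0.17 and 0.18, with libraries that overlapped the control and calls lost on the same-total scale (adjusted p = 0.0567 and 0.162), and COX5A passed the test with neither (0.035 and -0.023, adjusted p = 0.544 and 0.672). Outside the members, COX4I1 rose with pyrimethamine by 0.27 (SE 0.043) and gave 0.055 (SE 0.043) with mitoxantrone, which did not pass (adjusted p = 0.271). NDUFA4L2, a relative of NDUFA4 induced by hypoxia, averaged 11.4 ± 5.7 with pyrimethamine, 115 ± 26.9 with mitoxantrone and 54 ± 8 in the control, with changes of -2.26 (SE 0.29) and 1.06 (SE 0.29) (adjusted p = 1.32e-06 and 0.00322).

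In complex V, the ATP synthase, the mitoxantrone changes were the largest by sum. With pyrimethamine 13 of 18 members were higher and 1 lower (median log2 change 0.22), and with mitoxantrone 11 were higher and 2 lower (median 0.27). Mitoxantrone over pyrimethamine, 9 were higher and 8 lower (50% and 44.4%), beside 36.9% and 39.5% of all genes tested. Against the control, 26.4% of all genes tested were higher and 26.9% lower with pyrimethamine, and 33.5% and 35.8% with mitoxantrone. The F1 head, which makes ATP, and the central stalk that turns in it had together 4 of 5 members higher with each drug, with medians of 0.29 for pyrimethamine and 0.48 for mitoxantrone. ATP5F1B, its catalytic beta subunit, had 92520.3, 87213, 86104 and 89582 normalized counts with pyrimethamine, 94530.4, 99351, 100473 and 99983 with mitoxantrone and 71423, 73536, 72288 and 72446 in the control. Both drug groups were above the control without overlap, by 0.29 (SE 0.038) with pyrimethamine (adjusted p = 1.05e-06) and 0.44 (SE 0.038) with mitoxantrone (adjusted p = 9.69e-10).

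ATP5F1A, the alpha subunit, which stands beside beta in equal number in the protein, had 33648, 31472, 31262 and 32960.0 with pyrimethamine, 44736, 45970.0, 47378 and 46508 with mitoxantrone and 31946, 33453, 33504 and 32188 in the control. Mitoxantrone libraries stood above all others, and pyrimethamine and control libraries overlapped, with changes of 0.49 (SE 0.036) for mitoxantrone (adjusted p = 8.95e-11) and -0.02 (SE 0.036) for pyrimethamine (adjusted p = 0.673). The gamma subunit ATP5F1C of the central stalk rose by 0.21 with pyrimethamine and 0.48 with mitoxantrone, and the delta subunit ATP5F1D by 0.37 and 0.59. The 4 peripheral stalk genes ATP5PB, ATP5PD, ATP5PF and ATP5PO were all higher with pyrimethamine (0.14 to 0.39), and ATP5PB and ATP5PF also with mitoxantrone (0.31 and 0.39). The pyrimethamine call of ATP5PF was lost on both same-total scales (adjusted p = 0.146 and 0.0728) and without control replicate 1, control replicate 2 or pyrimethamine replicate 1 (adjusted p = 0.0922, 0.0562 and 0.0512).

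ATP5IF1, which encodes the factor that blocks ATP hydrolysis by the enzyme, lies at chr1:28236109-28246906. It had 8149, 7621, 8162 and 8787 with pyrimethamine, 5569, 5948, 6107 and 5989 with mitoxantrone and 6434, 6453, 6734 and 7352 in the control, and the 3 groups did not overlap. The log2 change was 0.28 (SE 0.048) with pyrimethamine (adjusted p = 4.12e-05), -0.19 (SE 0.048) with mitoxantrone (adjusted p = 0.00129) and -0.47 (SE 0.048) between the drugs. Of the small membrane subunits, ATP5MD was higher with pyrimethamine, at 12492 ± 771 against 9487 ± 766 in the control (0.40 (SE 0.05)), and gave -0.027 (SE 0.05) with mitoxantrone (adjusted p = 0.647). ATP5MG fell with mitoxantrone (-0.19 (SE 0.054), adjusted p = 0.00459) and gave 0.098 (SE 0.054) with pyrimethamine (adjusted p = 0.136), with 56.5% of its coding sequence shared with other annotated genes.

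**Figure D3:**
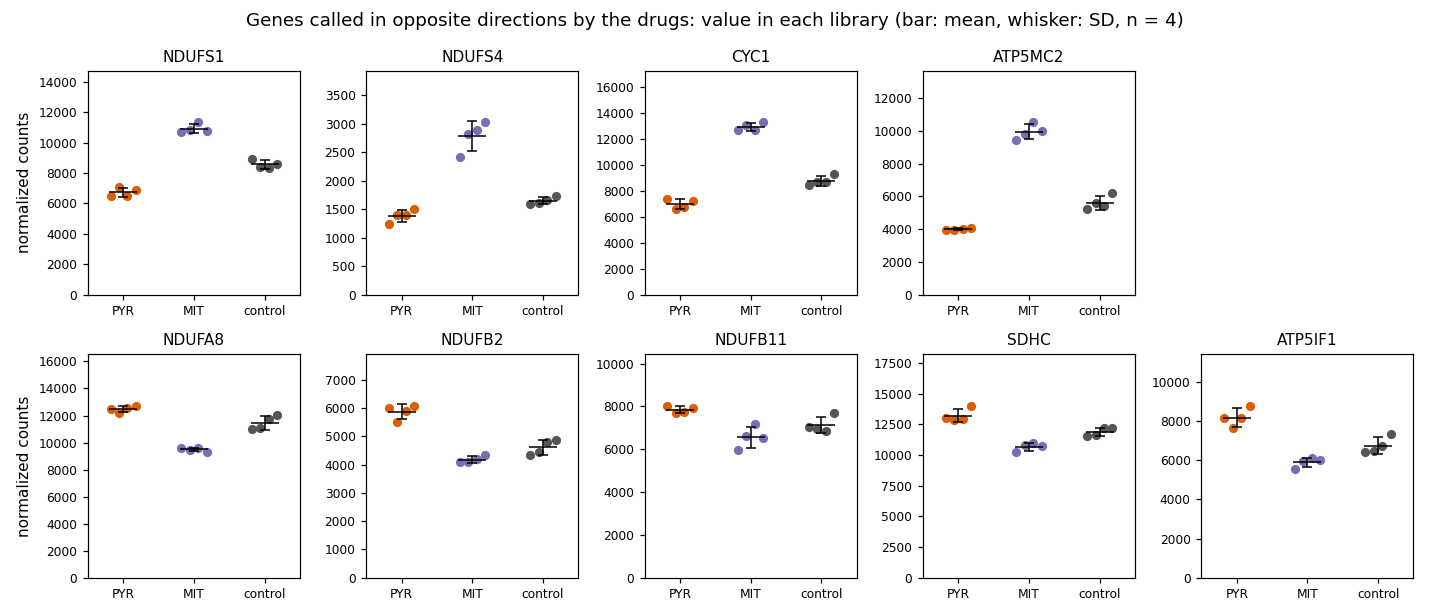
Normalized counts in each library (points), with mean (bar) and SD (whisker, n = 4), of 9 members called in opposite directions against the control. PYR is pyrimethamine and MIT mitoxantrone; in the top row (NDUFS1, NDUFS4, CYC1, ATP5MC2) mitoxantrone is highest and pyrimethamine lowest, and in the bottom row (NDUFA8, NDUFB2, NDUFB11, SDHC, ATP5IF1) pyrimethamine is highest and mitoxantrone lowest.

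The genes ATP5MC1, ATP5MC2 and ATP5MC3 encode the same mature c subunit, which forms the rotating ring of ATP synthase in the membrane, with different import signals. ATP5MC2 (chr12:53632726-53677408) had 3975, 3929.9, 3989.6 and 4092 normalized counts with pyrimethamine, 9445, 9852, 10532 and 10030.0 with mitoxantrone and 5233, 5575, 5404 and 6233 in the control. Its groups were far apart and did not overlap, with a log2 change of -0.49 (SE 0.047) with pyrimethamine (adjusted p = 1.90e-08), 0.83 (SE 0.047) with mitoxantrone (adjusted p = 1.37e-12) and 1.32 (SE 0.047) between the drugs (adjusted p = 2.11e-16), in each of the last 2 comparisons the largest change of any tested member. ATP5MC1 (chr17:48892765-48895871) had 8739, 8251, 8504 and 8636 with pyrimethamine, 7861, 7263, 7725 and 7263 with mitoxantrone and 5750.0, 6286, 6258 and 6663 in the control, so that pyrimethamine was highest and the control lowest, with changes of 0.45 (SE 0.043) and 0.27 (SE 0.043). ATP5MC3 (chr2:175176258-175184607) rose with mitoxantrone, to 15849 ± 907 against 10512 ± 532 in the control (0.59 (SE 0.043)), and gave 0.038 (SE 0.043) with pyrimethamine (adjusted p = 0.484).

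Taken as shares of the sum of the 3 genes, ATP5MC1 held 36.6% ± 0.514 with pyrimethamine, 22.6% ± 0.83 with mitoxantrone and 27.9% ± 0.149 in the control (SD, n = 4 each). ATP5MC2 held 17.1% ± 0.219, 29.9% ± 1.13 and 25.1% ± 0.857 in the same order, and ATP5MC3 held 46.2% ± 0.523, 47.5% ± 1.01 and 47.0% ± 0.876. The sum was 23309 ± 379 normalized counts with pyrimethamine, 33342 ± 1349 with mitoxantrone and 22362 ± 1273 in the control. Pyrimethamine and control sums overlapped (22960 to 23682 and 20744 to 23856), while the shares of ATP5MC1 and ATP5MC2 did not overlap between any of the groups. These shares compare counts per gene and are not corrected for transcript length.

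**Figure D4:**
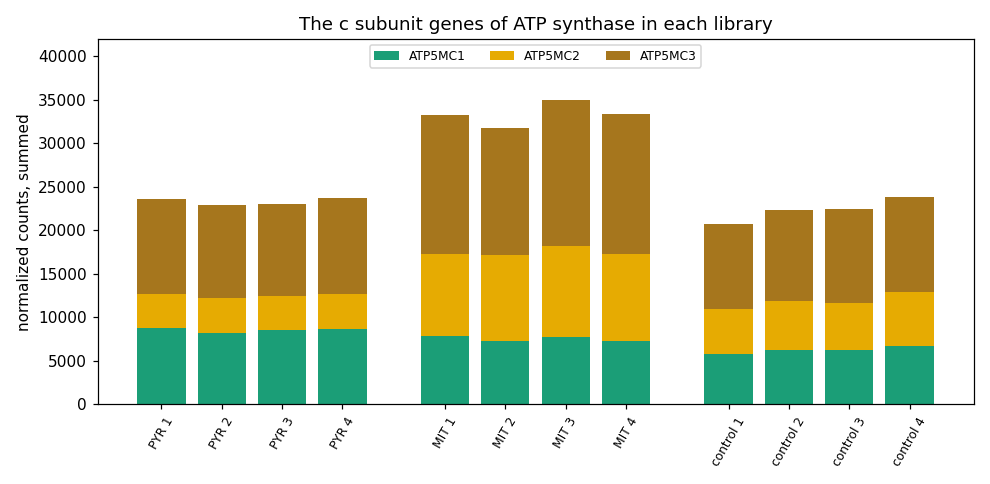
Stacked normalized counts of ATP5MC1, ATP5MC2 and ATP5MC3 in each library of the pyrimethamine (PYR), mitoxantrone (MIT) and control groups. The total is highest in the mitoxantrone libraries (31703 to 35008), and the ATP5MC2 layer is thinnest in the pyrimethamine libraries (16.9 to 17.3% of the total).

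Summed over members, complex I held 255693 ± 7993 normalized counts with pyrimethamine, 252153 ± 9201 with mitoxantrone and 231810 ± 7939 in the control (SD, n = 4 each). Relative to the control mean, the sums stood at 1.10 with pyrimethamine and 1.09 with mitoxantrone for complex I, 1.05 and 1.04 for complex II, 1.09 and 1.13 for complex III, 1.19 and 1.10 for complex IV, and 1.15 and 1.29 for complex V. Pyrimethamine and control libraries did not overlap for complexes I, II, IV and V and met at the edge for complex III, and mitoxantrone and control libraries did not overlap for complexes III and V but did for complexes I, II and IV. On the authors' scale these sums also carry the totals of the libraries. As shares of each library's total, pyrimethamine and control libraries did not overlap for complexes IV and V only and overlapped for I, II and III, while mitoxantrone and control libraries did not overlap for complex V only. The mean share of complex II with mitoxantrone was 0.970 of that in the control. All members together took 1.125% of all normalized counts with either drug, against 1.04% in the control.

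The 13 subunits encoded by the mitochondrial genome moved apart from the nuclear members under mitoxantrone. Their sum stood at 1.20 of the control mean with pyrimethamine and 0.626 with mitoxantrone, with 11 of 13 higher and none lower with pyrimethamine, and none higher and 13 lower with mitoxantrone (median log2 change -0.66). They took 5.43% ± 0.482 of all normalized counts with pyrimethamine, 2.75% ± 0.244 with mitoxantrone and 4.71% ± 0.176 in the control. Mitoxantrone replicate 1 was lowest, with 2.39% of its counts, against 2.85% to 2.9% in the others of its group and 4.49% in the lowest control library. Without that replicate, 44 members were higher and 7 lower with mitoxantrone than in the control, and 30 higher and 28 lower with mitoxantrone than with pyrimethamine. The part of the mitochondrial transcripts in the nuclear values was not tested beyond the total without them, given above.

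**Figure D5:**
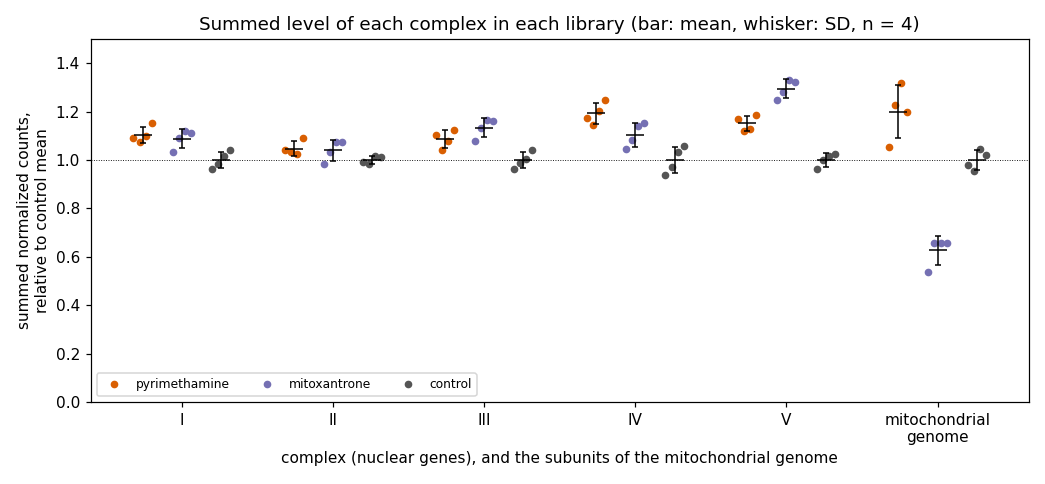
Summed normalized counts of the nuclear members of each complex, and of the 13 mitochondrially encoded subunits, in each library (points), on the authors' scale and divided by the control mean, with group mean (bar) and SD (whisker, n = 4). Nuclear sums with mitoxantrone stand between 1.04 and 1.29 on average, and the mitochondrial genome at 0.626. On a scale without mitochondrial transcripts the median mitoxantrone change of complexes I, II, III and IV falls below 0.

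Proteins that assemble the complexes or control their genes were counted from lists. Of all genes tested, 26.4% were higher and 26.9% lower with pyrimethamine, and 33.5% and 35.8% with mitoxantrone. The lists were counted on the authors' scale only, and the mitoxantrone balance of the members depended on the scale. Of 14 assembly factors of complex I, 5 were higher and 7 lower with pyrimethamine, and 11 higher and 1 lower with mitoxantrone, with NDUFAF4 (1.03 (SE 0.071)) and NDUFAF3 (0.79 (SE 0.048)) highest and NDUFAF1 (-0.17 (SE 0.044)) the one that fell. With pyrimethamine TIMMDC1 (0.57) and NDUFAF3 (0.40) rose most, and NUBPL (-0.52) and COA1 (-0.42) fell most. The complex II factors were higher in 2 and lower in none of 4 with pyrimethamine and 3 and 1 with mitoxantrone, those of complex III in 3 and 2 of 6 and 3 and none, those of complex IV in 9 and 5 of 22 and 12 and 2, and those of ATP synthase in none and 1 of 3 and 2 and 1. Among them UQCC3, an assembly factor of complex III, rose most with mitoxantrone, by 1.21 (SE 0.065) (adjusted p = 6.83e-13), and gave -0.029 (SE 0.065) with pyrimethamine (adjusted p = 0.735).

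Of 15 regulators of respiratory genes, 5 were higher and 3 lower with pyrimethamine and 11 higher and 1 lower with mitoxantrone. TFB1M, which methylates mitochondrial ribosomal RNA, averaged 385 ± 29.6 with pyrimethamine, 952 ± 98 with mitoxantrone and 384 ± 39.6 in the control, a rise of 1.31 (SE 0.09) with mitoxantrone. NRF1 rose with mitoxantrone by 0.69 (SE 0.062) (adjusted p = 3.08e-09), and TEFM, which keeps the mitochondrial RNA polymerase elongating, fell, with a log2 change of -0.36 (SE 0.081) and an adjusted p of 0.00046. With pyrimethamine the coactivator genes PPARGC1B (-0.54) and PPARGC1A (-0.54) fell most, while MTERF3 (0.62) and POLRMT (0.27) rose most. Neighboring pathways of the mitochondrion were counted against the same shares of all genes tested (26.4% higher and 26.9% lower with pyrimethamine, 33.5% and 35.8% with mitoxantrone): the tricarboxylic acid cycle had 5 higher and 6 lower of 13 with pyrimethamine and 9 and 2 with mitoxantrone, coenzyme Q synthesis 2 and 5 of 11 and 9 and 2, and protein import 6 and 5 of 14 and 12 and 2. SUCLG2 of the cycle (1.23), COQ2 of coenzyme Q synthesis (1.20) and TIMM13 of import (1.17) rose most with mitoxantrone in their lists.

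The recognition letters of the promoters were set beside the calls. Against the control, the NRF1 letters were in 6 of 39 matched promoters of members higher with pyrimethamine, 1 of 6 of those lower and 3 of 19 of those not called, and with mitoxantrone in 7 of 32, 1 of 6 and 2 of 26. Between the drugs, where the counts lay furthest apart, the NRF1 letters were in 8 of 24 matched promoters of members higher with mitoxantrone than with pyrimethamine, 2 of 22 of those lower and 0 of 18 of those not called. The YY1 letters were in 6 of 24, 1 of 22 and 1 of 18, and the ETS letters in 6 of 24, 8 of 22 and 5 of 18. The members with NRF1 letters were NDUFS6, NDUFS7, NDUFB4, NDUFA8, SDHD, COX6A1, ATP5MC2, ATP5PF, ATP5F1C and ATP5ME, of which NDUFA8 and COX6A1 were lower with mitoxantrone than with pyrimethamine. The calls of NDUFB4 and SDHD between the drugs were lost with a total without mitochondrial transcripts (limma adjusted p = 0.181 and 0.749). All these letter counts used calls on the authors' scale only. The counts are small and were not tested, and they draw nothing about the binding of the factors.

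Short and long members were also counted apart. With coding sequences of at most 600 bases, 42 of 57 members were higher and 3 lower with pyrimethamine (median log2 change 0.19), while of the 19 longer members 8 were higher and 4 lower (median 0.049), among members that averaged 100 normalized counts or more. With mitoxantrone 24 of the 57 short members were higher and 7 lower (median 0.10), against 15 and 1 of the 19 long ones (median 0.31). Of all genes tested with that mean, 45.0% of the short and 27.3% of the long ones were higher with pyrimethamine, and 45.7% and 40.9% with mitoxantrone. Lower were 268 of 1397 short and 3672 of 9842 long genes with pyrimethamine, and 412 and 3546 with mitoxantrone. Mitoxantrone over pyrimethamine, 15 of the short members were higher and 27 lower, and 13 of the long ones were higher and 2 lower. Of all genes tested with that mean, 38.5% of the short and 46.0% of the long ones were higher in that comparison. Lower were 574 of the 1397 short and 3647 of the 9842 long genes. Spearman's correlation of the log2 change with coding length over these 76 members was -0.41 with pyrimethamine, 0.19 with mitoxantrone and 0.37 between the drugs, and over the 11239 tested genes with that mean -0.14, -0.056 and 0.027. The members share all libraries and are not independent, so these are descriptions only, and all 6 tested core subunits of complex I are longer than 600 bases, so length and role cannot be told apart there.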

How the data were processed

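RNA-seq values for 12 libraries of KYSE70 cells were read from the deposited table. Per the submitters' processing notes, the aligner was STAR, the counter featureCounts 1.5.1, and FastQC 0.11.5 and cutadapt 1.12 were also used, with builds hg38 and mm10. The values are a normalized signal per gene, which the authors deposited after dividing read counts by 1 factor per library; multiplied back, 100% of the values were whole reads within 0.01 read. How reads in overlapping genes were counted is not given in the sources used here.

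Genes that reached 10 in 4 or more libraries (16950) were tested with limma 3.58.1 in R 4.3.3 on log2(value + 1), with all 12 libraries in 1 fit, group as the only term and a variance trend. Two-sided p-values were adjusted over all genes tested by the method of Benjamini and Hochberg, with calls at 0.05. A log2 change on this scale understates that of genes with few counts. Sums, medians and shares have no test.

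Members, lists, tests and the naming rule were chosen with earlier results of these data known. The rule names in each comparison the 6 highest and 6 lowest called members, the highest and lowest of each complex, core subunits, isoform families and members called in opposite directions, and of other lists the highest and lowest called genes. Other members behind small counts, and those printed for their promoters, were chosen after their values were seen. Values of 1 member are not reported here, and it remains in the counts, medians and sums. Lengths, overlaps and coordinates come from GENCODE release 29 on GRCh38, which may differ from the authors' annotation, and promoters from RefSeq on GRCh38.p14. Members were matched to promoters by Ensembl identifier or, failing that, by symbol or synonym. Tested genes were matched by symbol or synonym.

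Alternatives were other pseudocounts, filters and scalings, edgeR 4.0.16 and DESeq2 1.42.0 on the whole reads, only the libraries compared, a replicate block and each library left out. The count without members of shared coding sequence was added after seeing the data. The scripts were tested on simulated data. Depth was 47.5 to 94.5 M reads, and limits from a count of 0 cover counting error only. Tables were made with pandas 2.3.3 and numpy 2.4.6 in Python 3.11.15, and figures with matplotlib 3.10.9.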

Additional observations from a re-analysis of the deposited data

Results flagged for a closer look

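In 10 of 141 groups of 4 libraries (47 named and tested members in each of 3 groups), 1 library lay so far from the others that its gap, divided by the range of the group, was above Dixon's 95% critical value for 4 samples. Chance puts about 1 in 20 such groups past it. In 6 of the 10 the library was the highest of its group, and no library and no complex held most of them. No explanation was weighed.

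With pyrimethamine, replicate 4 was the highest library for ATP5F1C (ratio 0.925, with 9669.7 normalized counts against 8768 to 8836 in the others), for NDUFA4 (0.833, 22227 against 18578 to 19189) and for SDHC (0.876, 14018 against 12890.4 to 13030.0). In the same group, replicate 2 was the lowest for COX8A (0.832, 4085 against 4332 to 4383) and for NDUFA5 (0.950, 2286 against 2412 to 2419), and replicate 1 was the highest for UQCRC1 (0.830, 22026 against 19936 to 20291). With mitoxantrone, replicate 1 was the lowest for COX5B (0.895, 10532 against 12220.2 to 12418) and for NDUFB9 (0.904, 15644 against 19036 to 19397), and replicate 2 was the highest for NDUFV1 (0.832, 10853 against 10433 to 10503). In the control, replicate 4 was the highest for NDUFS3 (0.851, 6191 against 5897 to 5941). The calls of ATP5F1C, NDUFA4, SDHC, COX8A and NDUFS3 against the control held without the library named here.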

How the results depend on the processing

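Counts of called members and medians kept their direction and stayed within 1.5 times or the spread for both pseudocounts, the mean of at least 100, edgeR, DESeq2 and the fit to the libraries compared. With 1 library left out, 41 to 49 members were higher with pyrimethamine than in the control, 38 to 44 with mitoxantrone, and 26 to 30 with mitoxantrone than with pyrimethamine. Of the calls, 36 of 50 higher and 7 of 7 lower with pyrimethamine, 26 of 39 and 7 of 8 with mitoxantrone, and 16 of 28 and 27 of 29 between the drugs held in every alternative. The causes of the changes below were not tested.

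The choice of scale moved most. On the same-total scale the median log2 changes with pyrimethamine were 0.10 for all members, 0.081 for complex I, -0.021 for II, 0.070 for III, 0.20 for IV and 0.16 for V. With mitoxantrone against the control they were 0.016, -0.013, -0.072, 0.030, 0.012 and 0.17, with 18 members lower, and NDUFV1 was -0.0038. With a total without mitochondrial transcripts, mitoxantrone against the control gave -0.025 for all members, -0.054 for complex I, -0.11 for II, -0.011 for III, -0.029 for IV and 0.13 for V, with 24 lower, and COX6B1, UQCRC2, NDUFV1 and UQCRFS1 at -0.095, -0.023, -0.045 and -0.0033. On that scale mitoxantrone against pyrimethamine gave -0.13 for all members, -0.11 for complex I, -0.056 for II, -0.077 for III, -0.22 for IV and -0.096 for V, with 16 higher, UQCRC2 at -0.079 and NDUFV1 at -0.016. Upper-quartile rescaling gave, between the drugs, -0.084 for all members, -0.059, -0.0094, -0.030, -0.18 and -0.049 for complexes I to V. Quantile normalization gave, for mitoxantrone against the control, 0.081 for complex III, 0.035 for IV and 0.17 for V, with 14 lower and UQCRC2 at -0.017, and, between the drugs, -0.0012 for complex II, -0.048 for III, -0.18 for IV and -0.072 for V.

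With no filter on low values, which adds near-silent isoforms, mitoxantrone against the control gave -0.019 for complex IV and 0.22 for V, and between the drugs complex IV gave -0.17. Without members of at least 50% shared coding sequence, an alternative chosen after seeing the data, the medians between the drugs were 0.029 for all members and 0.14 for complex V.

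The replicate block was tried because the groups share replicate numbers. Over all tested genes, deviations from the group means correlated by -0.013 to 0.029 for libraries of the same number, against -0.074 to 0.045 for different numbers. With so few libraries per group, these values cannot decide whether same-numbered samples were paired. With the block, 51 members were higher and 8 lower with pyrimethamine, 42 and 9 with mitoxantrone, and 28 and 31 between the drugs. Without the filter, 6 of the 8 members below it could be fitted, and only between the drugs were any called, NDUFV2 higher (1.46, adjusted p = 0.0498) and ATP5MGL lower (-1.30, adjusted p = 0.0316) with mitoxantrone, both at few counts.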
